A study of Mus musculus with 9 samples.

Results

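The genes of N-glycan biosynthesis build a branched sugar chain on a lipid carrier, move it onto asparagine residues of newly made proteins and then reshape it. Here 42 of them were taken by gene symbol, from 18816 genes listed in a table with Th9 libraries and 18511 in a table with Th17 libraries. The genes were chosen with earlier results of these data known. All 42 were listed in both tables and passed the filter on low values in both. The genes were followed in LLC1 cells, the mouse Lewis lung carcinoma line, after 24 h in direct contact with T cells made in culture, at 1 T cell per LLC1 cell. The 3 groups, with 3 libraries each, were LLC1 cells with Th0 cells (the controls), with Th9 cells and with Th17 cells. All groups thus share the contact with T cells, and no library of LLC1 cells alone was analysed here. CD4-positive cells were sorted away before RNA was taken, and the series' title asks whether Th9 and Th17 cells favour an epithelial-mesenchymal transition of lung cancer cells. Nothing in the labels tells if the 3 libraries of a group came from separate cultures, and the p-values therefore reflect only the spread among these libraries, which may be technical.

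In the endoplasmic reticulum (ER), sugars are added step by step to the lipid dolichol, first on the cytosolic side and then on the luminal side of the membrane. The oligosaccharyltransferase complex passes the finished chain to proteins, glucosidases and mannosidases trim it during folding and quality control, and Golgi enzymes add the branches and caps that reach the cell surface. Tumour cells often carry more highly branched N-glycans than normal cells, and adhesion molecules and growth factor receptors are among the proteins that carry them. The 42 genes are described below in this order, as the dolichol carrier and sugar donors (8 genes), assembly of the lipid-linked oligosaccharide (12), transfer (9), trimming (6), and branching and capping (7).

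Values are the deposited normalized counts per gene, and the log2 fold change is the difference of the mean log2(value + 1) between groups, given with its standard error (SE). A gene was called higher or lower when its adjusted p in limma's test over all genes was under 0.05. The libraries held about 12700000 to 17500000 assigned reads. Th0 replicate 1 stood apart from all other libraries, with 31.1% of its total on 3 non-coding RNA genes (Gm26917 and the mitochondrial ribosomal mt-Rnr2 and mt-Rnr1), against 14.9% to 21.8% in the rest. Calls at an adjusted p under 0.05, and counts of them, are therefore given below both ways where they change without that library. Of 7 genes chosen as LLC1 markers, Cdh1 and Epcam were not listed in either table. The 5 that were listed (Krt8, Krt18, Vim, Cdh2 and Fn1) were present in every library. Of these 5, Krt8 was called lower with Th9 cells and 0 were called with Th17 cells, whereas without Th0 replicate 1 all 5 were called lower with Th9 cells and 2 (Krt8 and Krt18) with Th17 cells.

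With Th9 cells, 7 of the 42 genes were called higher and 5 lower, or 16.7% and 11.9% of them, beside 13.4% and 11.9% of all 14475 genes tested. With Th17 cells, 4 were called higher (9.52%) and 0 lower, beside 1.19% and 0.39% of 14342 genes. At an unadjusted p under 0.05, 10 were higher and 7 lower with Th9 cells, and 15 higher and 3 lower with Th17 cells. For that threshold the share of all genes was not computed, here or below, so such counts have no background beside them. Without Th0 replicate 1 the counts were 8 higher and 9 lower with Th9 cells, beside 18.1% and 19.1% of all genes. For Th17 they were then 11 higher and 5 lower, beside 6.85% and 9.7% of all genes. The share of the genes called with Th9 cells thus lay near the background, and with Th17 cells the share called higher lay above it with and without that library, a difference for which no test was made. The median log2 fold change of the 42 genes was 0.058 with Th9 cells and 0.118 with Th17 cells, against -0.011 and -0.005 over all genes. Scaling each library to the same total moved the median of all genes in the Th9 comparison to 0.096 and that of the 42 genes to 0.166. On that scale 8 of the 42 were called higher with Th9 cells and 0 lower, so the 5 lower calls among the 42 genes with Th9 cells depend on the scaling. They were kept when mt-Rnr1, mt-Rnr2 and Gm26917 were left out of the totals, where 10 of the 42 were called higher and 6 lower. There Alg2, Alg10b, Mgat4b and Fut8 were added as higher and Man1a2 as lower, and Alg8 was no longer called.

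Alg3 and Ganab were called higher in both comparisons, and 28 genes were called in neither. The comparisons share their Th0 libraries, so the overlap is no independent support. Without Th0 replicate 1, 10 genes were called in the same direction in both (Alg2, Alg3, Alg8, Alg9, Stt3b, Rpn1, Magt1, Mogs, Ganab and B4galt1) and 0 in opposite directions. Then 19 were called in neither. The shares of all genes called in both comparisons or in neither were not computed, so these counts have no background beside them. Th17 was not tested against Th9, because the tables were normalized separately.

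**Figure D1:**
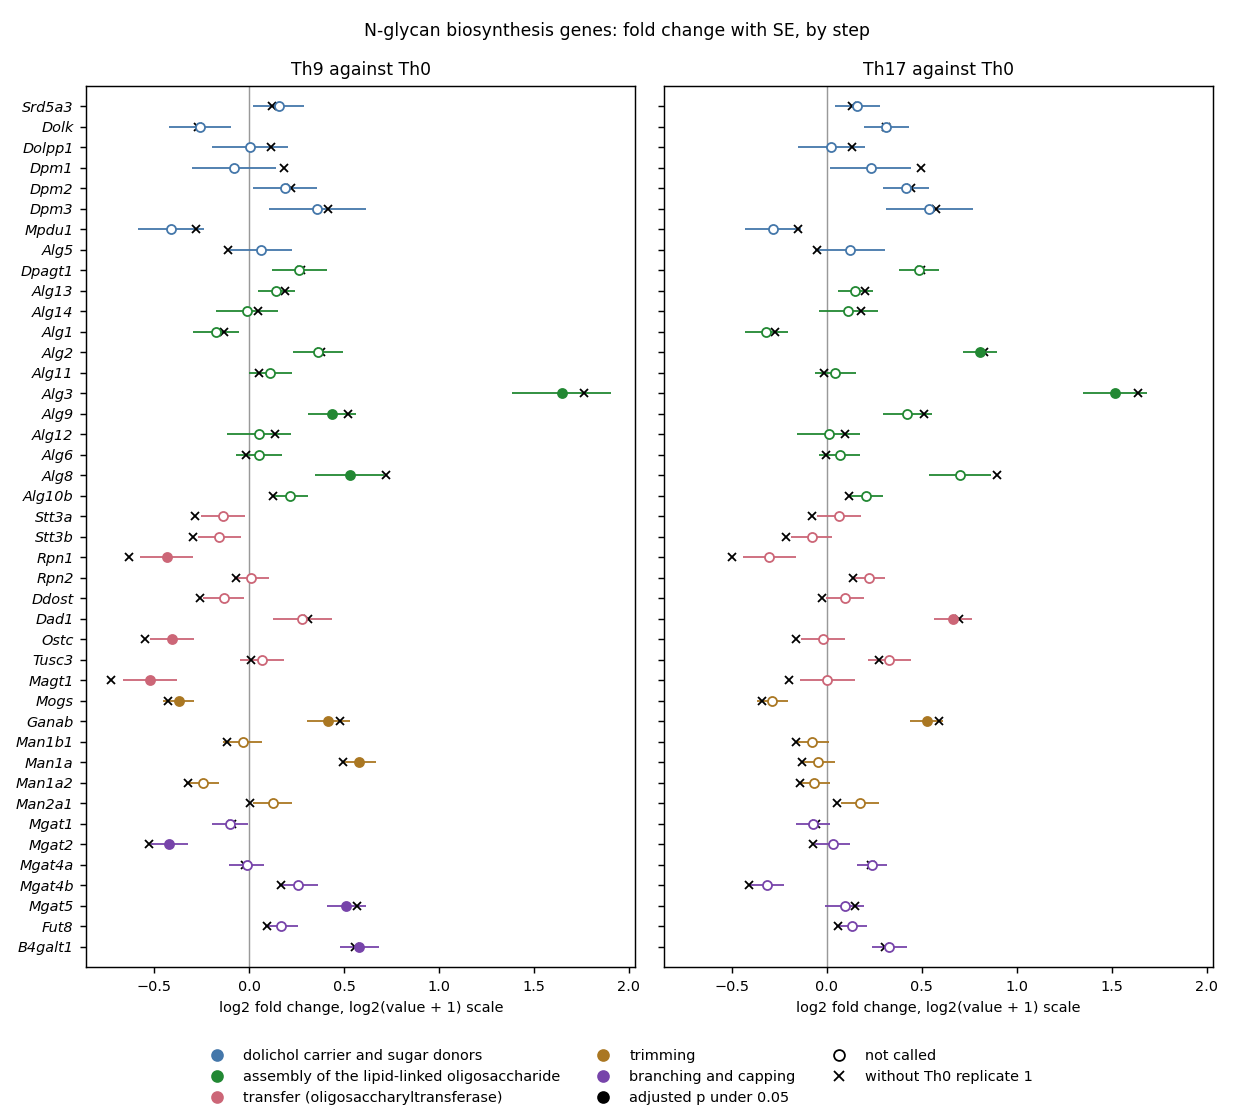
Log2 fold change against Th0 for each of the 42 genes, by step, with Th9 cells and with Th17 cells; dots are the estimates with SE (n = 3 libraries per group), filled dots have an adjusted p under 0.05, and crosses are the estimates without Th0 replicate 1. Alg3 lies farthest to the right in both panels, at 1.64 and 1.52, and the crosses of most transfer genes lie to the left of their dots.

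Short stretches upstream of the start site of 6 genes are printed here, since the genes of a pathway may share promoter letters and the unfolded protein response, a program that many ER genes belong to, has known ones. RefSeq promoter windows (GRCm38.p6, the 250 bases before the start) were held for 35 of the 42 genes. The motifs were chosen with the expression results known and were searched on both strands, and 1 further pattern was dropped after its hits, in Fut8 alone of these genes, had been seen. Alg3 and Ganab are shown because both were called in both comparisons, Alg12 because it alone held the ER stress element, Mogs and Dpm2 because they held the core of the unfolded protein response element, and Magt1 because it was the one called gene among those with an E-box. Capitals mark the CCAAT box in Alg3 and Ganab, the ER stress element in Alg12, the TGACGTG core in Mogs, that core on the other strand and an E-box (CACGTG) in Dpm2, and an E-box in Magt1. Each is given 5′ to 3′ on the gene's own strand, in the order chr16:20610762-20610961 (minus strand), chr19:8897957-8898056 (plus), chr15:88819459-88819558 (minus), chr6:83115406-83115505 (plus), chr2:32570758-32570857 (plus) and chrX:106011823-106011922 (minus).
Alg3: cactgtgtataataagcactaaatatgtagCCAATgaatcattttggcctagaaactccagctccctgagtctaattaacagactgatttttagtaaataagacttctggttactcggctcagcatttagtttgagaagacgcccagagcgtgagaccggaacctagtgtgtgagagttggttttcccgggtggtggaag
Ganab: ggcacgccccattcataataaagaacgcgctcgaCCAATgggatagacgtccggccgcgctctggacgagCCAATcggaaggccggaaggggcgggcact
Alg12: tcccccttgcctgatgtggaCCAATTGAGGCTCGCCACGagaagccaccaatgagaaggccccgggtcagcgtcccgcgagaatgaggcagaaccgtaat
Mogs: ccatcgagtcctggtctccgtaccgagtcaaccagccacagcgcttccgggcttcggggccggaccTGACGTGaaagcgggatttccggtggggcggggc
Dpm2: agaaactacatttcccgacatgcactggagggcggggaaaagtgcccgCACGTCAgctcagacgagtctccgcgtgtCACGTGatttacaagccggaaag
Magt1: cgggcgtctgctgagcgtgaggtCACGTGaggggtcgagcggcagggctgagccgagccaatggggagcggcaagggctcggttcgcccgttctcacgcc

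The ER stress element, CCAAT and CCACG with 9 bases of any kind between them, was found in 1 of the 35 genes (2.86%), against 0.13% of the 27025 genes with a window, and its second form, ATTGG and CCACG with 1 base between them, in 0 of 35, against 0.037%. TGACGTG stood in 2 genes (5.71% against 1.85%) and CACGTG in 4 (Dolk, Dpm2, Magt1 and Srd5a3; 11.4% against 6.86%). The short parts of the ER stress element were common everywhere, with CCAAT in 18 of 35 genes (51.4% against 37.5%) and CCACG in 13 (37.1% against 31%). A match describes letters only. Alg12, which holds the full element, had values of 94, 91 and 68 with Th0 cells and 89, 89 and 82 with Th9 cells, with a log2 fold change of 0.05 ± 0.17 (SE), and of 0.01 ± 0.17 with Th17 cells.

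Of the 8 genes of the dolichol carrier and sugar donors, 0 were called in either comparison. At an unadjusted p under 0.05, 1 was lower with Th9 cells (Mpdu1, named after its value was seen) and 3 were higher with Th17 cells. The step includes Srd5a3, which makes dolichol from polyprenol, Dolk, the dolichol kinase, and Dolpp1, which recycles the carrier. Dpm1, Dpm2 and Dpm3 form the enzyme that loads mannose onto dolichol phosphate, Alg5 does the same for glucose, and Mpdu1 is needed for both donors to be used. Log2 fold changes ran from -0.41 (Mpdu1) to 0.36 (Dpm3) with Th9 cells and from -0.28 (Mpdu1) to 0.54 (Dpm3) with Th17 cells, with medians of 0.03 and 0.20.

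Without Th0 replicate 1, Dpm1 and Dpm2 passed the test with Th17 cells. Dpm2 was listed at 100, 93 and 95 in the Th0 libraries and at 131, 127 and 127 in the Th17 libraries, groups that do not overlap. Its log2 fold change was 0.42 ± 0.12 (SE), with an adjusted p of 0.113 over 6 libraries and 0.0275 without Th0 replicate 1. Dpm1 was listed at 135, 86 and 69 against 105, 109 and 114, so Th0 replicate 1 was the highest library of all 6. Its log2 fold change was 0.23 (adjusted p = 0.624) with that library and 0.50 (adjusted p = 0.0339) without it. Per kilobase of exon this step had the lowest step median of the pathway, at 30.2 with Th0 cells, and Dpm1 was lowest of all 42 genes at 12.6. That rank depends on the annotation, as the merged exons of Dpm1 span 7489 bases and its longest transcript 4959. Of those exon bases, 12% are shared with Gm20716 on the same strand. Undivided, its Th0 mean in the table with Th9 was 94, above that of Dpm3 at 20.3.

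**Figure D2:**
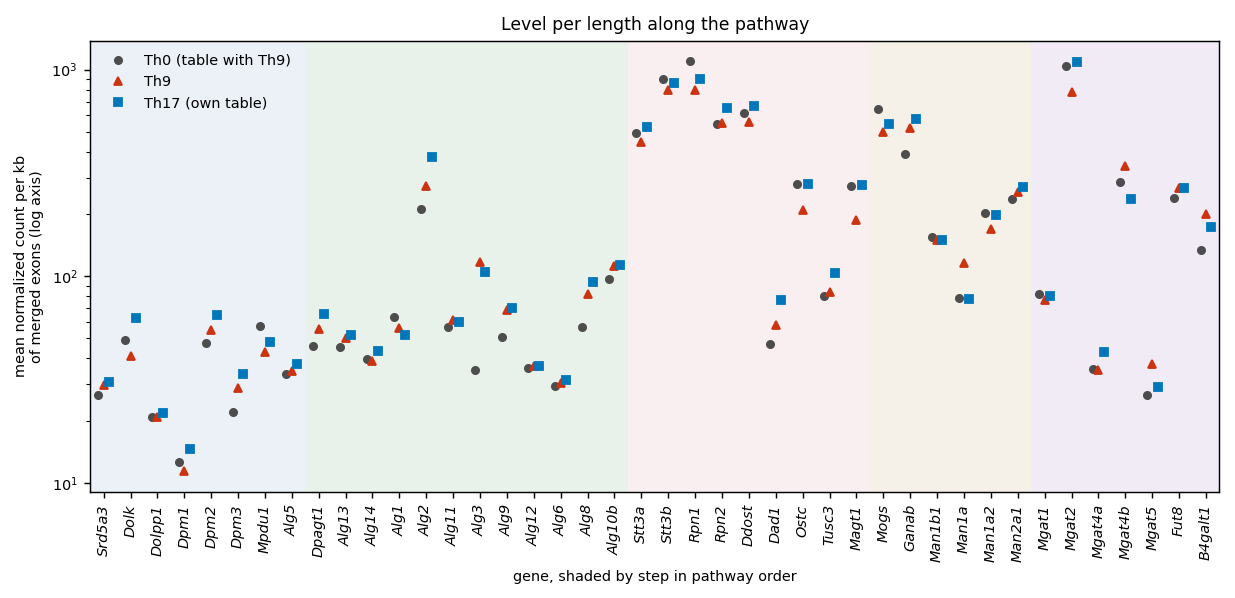
Mean normalized count per kilobase of merged exons (log axis) for the 42 genes in each group, shaded by step. By Th0 step median the oligosaccharyltransferase genes and the trimming genes lie highest, at 494.3 and 219.2, and the donor genes lowest, at 30.2. Single genes depart from this order, such as Mgat2 of branching and capping at 1045.3 and Dad1 of transfer at 46.9.

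In assembly, calls were in the higher direction and 0 in the lower one. With Th9 cells 3 of 12 were called higher (median log2 fold change 0.18) and with Th17 cells 2 of 12 (median 0.18). At an unadjusted p under 0.05, 0 were lower with Th9 cells and 1 with Th17 cells. Without Th0 replicate 1, 4 genes of the step were called higher with Th9 cells and 5 with Th17 cells, and 0 lower in either. Alg3 adds the first of the mannoses that are attached on the luminal side, and Alg2 adds mannoses on the cytosolic side.

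Alg3 (chromosome 16, 20605451 to 20610768, minus strand) was listed at 70, 59 and 50 in the Th0 libraries and at 249, 232 and 113 in the Th9 libraries. Every Th9 library lay above every Th0 library, and Th9 replicate 3 was less than the other two of its group. The mean went from 59.67 ± 10.02 to 198.0 ± 74.1 (SD, n = 3), a 3.13-fold rise on the log2(value + 1) scale, with a log2 fold change of 1.64 ± 0.26 (SE) and an adjusted p of 0.000649. With Th17 cells its values were 206, 152 and 174 against 72, 61 and 51, groups that do not overlap either. The fold was 2.87, with a log2 fold change of 1.52 ± 0.17 (SE) and an adjusted p of 0.00291. Alg3 moved the most of the 42 genes in both comparisons. Its call held in all 14 alternatives in both, with log2 fold changes of 1.439 to 2.005 and of 1.395 to 1.645. Its exons share 8.5% of their bases with Eef1akmt4 on the opposite strand, and whether the counting used strand is not stated.

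Alg2 (chromosome 4, 47465067 to 47474333, minus strand) was listed at 760, 819 and 656 with Th0 cells and at 1317, 1289 and 1295 with Th17 cells. These groups lie far apart, and the Th17 libraries differ little among themselves. The mean rose from 745.0 ± 82.5 to 1300.3 ± 14.7 (SD, n = 3), 1.75-fold, with a log2 fold change of 0.81 ± 0.09 (SE), an adjusted p of 0.00291 and a call in all 14 alternatives. With Th9 cells the values were 1079, 999 and 747 against 739, 801 and 639. Th9 replicate 3 lies inside the Th0 range, and the log2 fold change of 0.36 ± 0.13 (SE) had an adjusted p of 0.0619. It was 0.0211 without Th0 replicate 1 and 0.0126 without Th9 replicate 3.

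Alg9 and Alg8 follow Alg3 on the luminal side, Alg9 adding mannose and Alg8 glucose. Alg9 (chromosome 9, 50775019 to 50843542, plus strand) was listed at 221, 203 and 169 with Th0 cells and at 274, 284 and 243 with Th9 cells. The groups do not overlap, and the log2 fold change was 0.44 ± 0.13 (SE), with an adjusted p of 0.024. Its values with Th17 cells were 301, 238 and 277 against 227, 207 and 174, with a log2 fold change of 0.42 ± 0.13 (SE) and an adjusted p of 0.126, which was 0.00882 without Th0 replicate 1. Its exons share 12.9% of their bases with 1110032A03Rik on the opposite strand.

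Alg8 (chromosome 7, 97371606 to 97392185, plus strand) was listed at 203, 143 and 130 with Th0 cells and at 251, 254 and 179 with Th9 cells. Th0 replicate 1 lies above Th9 replicate 3, so the groups overlap, and the adjusted p was 0.0497, with a log2 fold change of 0.53 ± 0.18 (SE). Without Th0 replicate 1 it was 0.72 (adjusted p = 0.000788). With Th17 cells the values were 274, 280 and 230 against 209, 146 and 133, with no overlap. The log2 fold change was 0.70 ± 0.16 (SE), with an adjusted p of 0.062, or of 0.000142 without Th0 replicate 1.

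The Th9 calls of Alg9 and Alg8 also depend on other libraries. Alg9's adjusted p was 0.101 without Th0 replicate 3, 0.101 without Th9 replicate 1 and 0.11 without Th9 replicate 2. For Alg8 it was 0.131 without Th0 replicate 2, 0.176 without Th0 replicate 3, 0.189 without Th9 replicate 1 and 0.19 without Th9 replicate 2. Among the rest of the step, Dpagt1, which starts the chain, had an adjusted p of 0.0506 with Th17 cells, where it was listed at 237, 214 and 225 against 163, 150 and 169. Its log2 fold change was 0.49 ± 0.11 (SE), and the adjusted p was 0.00569 without Th0 replicate 1. The other 7 genes (Alg13 and Alg14, which add the second N-acetylglucosamine together, Alg1 and Alg11 on the cytosolic side, and Alg12, Alg6 and Alg10b on the luminal side) ran from -0.17 to 0.21 in log2 fold change with Th9 cells and from -0.32 to 0.20 with Th17 cells, and none of them was called with or without Th0 replicate 1.

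**Figure D3:**
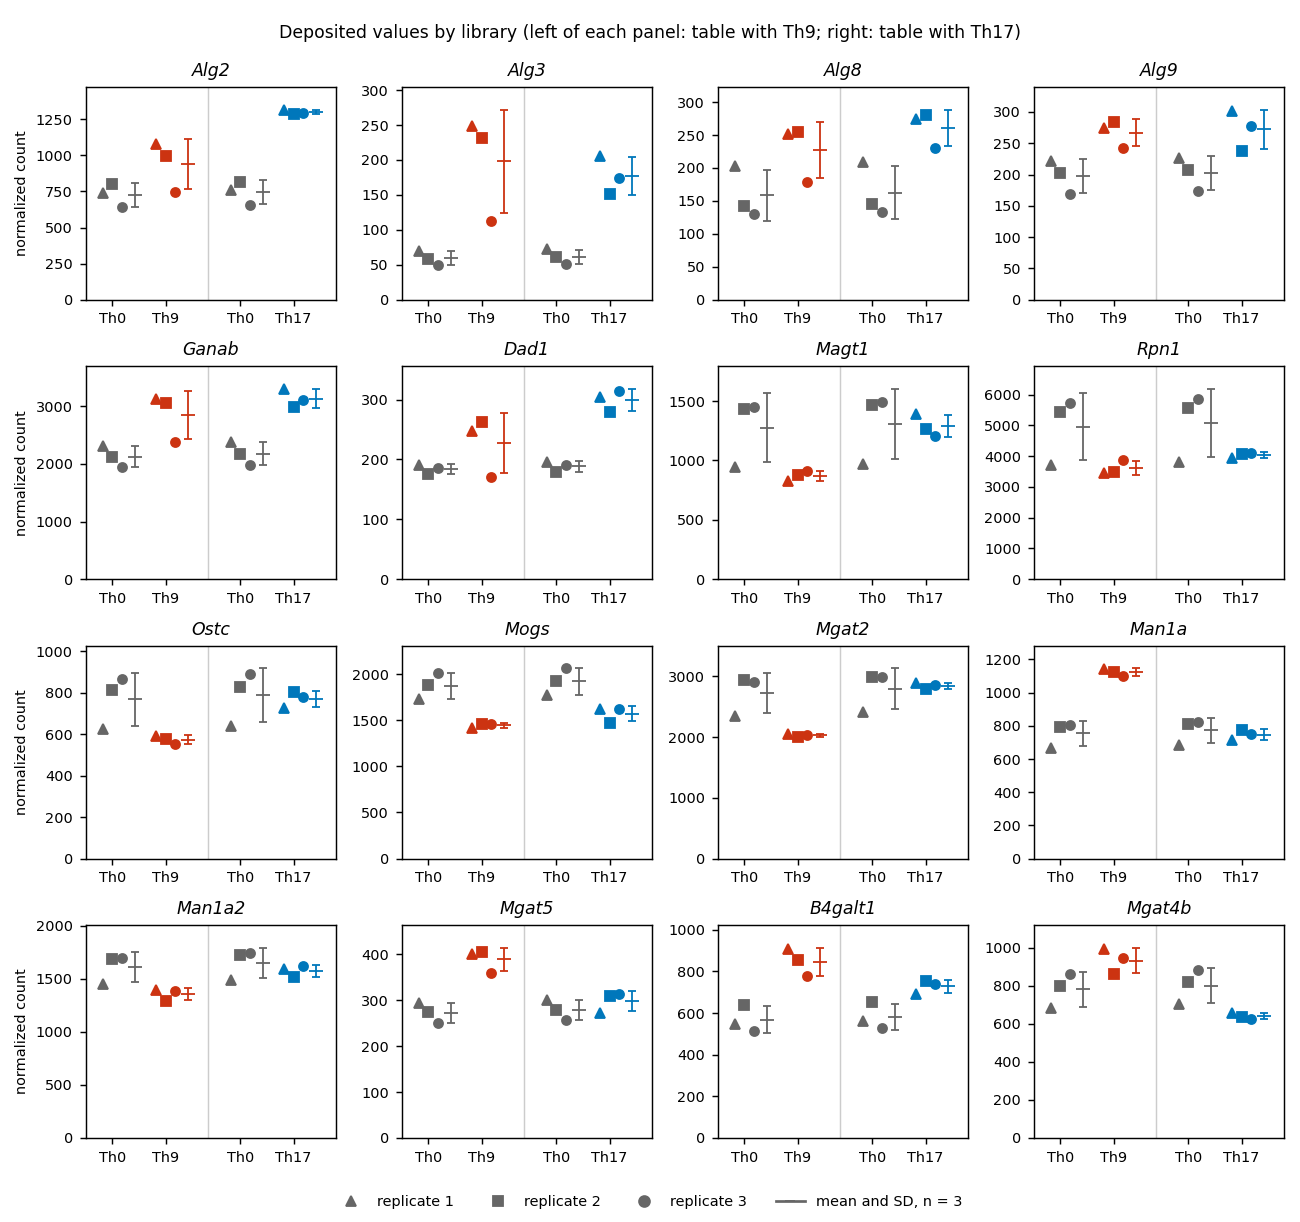
Normalized count in each library (linear axes from 0) for 16 genes, with mean and SD (n = 3); the left of each panel is the table with Th9 and the right the table with Th17, each with its own Th0 values. Alg3 and Alg2 stand above Th0 in all 3 Th17 libraries, and in Rpn1 and Magt1 the low Th0 point is replicate 1.

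In transfer, 3 of 9 genes were called lower with Th9 cells and 0 higher (median log2 fold change -0.14), and 1 was called higher with Th17 cells and 0 lower (median 0.07). The counts of 0 were also 0 at an unadjusted p under 0.05. Th0 replicate 1 was the lowest Th0 library for 8 of the 9 genes. Without it, 6 were called lower with Th9 cells (median -0.28), and 1 was called higher and 3 lower with Th17 cells (median -0.08). The part played by the RNA content of that library was not tested. As these are bulk libraries, fewer cells of a type and less RNA per cell cannot be told apart.

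Magt1 (chromosome X, 105968084 to 106011906, minus strand), an oxidoreductase subunit of the Stt3b complex, was listed at 943, 1436 and 1451 with Th0 cells and at 830, 875 and 912 with Th9 cells. The groups do not overlap, although Th0 replicate 1 lies close to the Th9 libraries. This was a log2 fold change of -0.52 ± 0.14 (SE), with an adjusted p of 0.0177, and of -0.73 without Th0 replicate 1. With Th17 cells the values were 1391, 1265 and 1210 against 969, 1467 and 1489, which overlap. The log2 fold change was 0.00 ± 0.15 (SE), with an adjusted p of 0.994, and -0.20 with an adjusted p of 0.048 without Th0 replicate 1.

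Its paralog Tusc3 was not called in either comparison. Tusc3 was listed at 255, 315 and 259 against 280, 314 and 271 with Th9 cells, a log2 fold change of 0.06 ± 0.12 (SE). Its Th17 libraries stood at 324, 347 and 397 against 262, 322 and 266, a log2 fold change of 0.33 ± 0.11 (SE) with an adjusted p of 0.163. Per kilobase of exon, Magt1 was the higher of the pair with Th0 cells, at 273.3 against 80.5.

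Rpn1 (chromosome 6, 88084482 to 88105304, plus strand), the ribophorin I subunit, had the highest level per kilobase of the 42 genes with Th0 cells, at 1098.0. It was listed at 3707, 5440 and 5715 with Th0 cells and at 3455, 3490 and 3864 with Th9 cells. Th0 replicate 1 lies inside the Th9 range, and the log2 fold change was -0.44 ± 0.14 (SE), with an adjusted p of 0.0396. Rpn1 stood at 3936, 4083 and 4108 with Th17 cells, against 3813, 5557 and 5865. The log2 fold change was -0.30 ± 0.14 (SE), with an adjusted p of 0.279. Without Th0 replicate 1 it was -0.63 with Th9 cells (adjusted p = 5.33e-07) and -0.50 with Th17 cells (adjusted p = 3.09e-05).

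Ostc (chromosome 3, 130695912 to 130709444, minus strand), a subunit of the Stt3a complex, was listed at 624, 812 and 869 with Th0 cells and at 594, 576 and 554 with Th9 cells, with no overlap. Ostc had a log2 fold change of -0.40 ± 0.12 (SE), with an adjusted p of 0.0231. Its Th17 libraries stood at 729, 803 and 778 against 642, 830 and 892, with a log2 fold change of -0.02 ± 0.11 (SE).

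These 3 lower calls rest on several libraries. Leaving out, in turn, Th0 replicates 2 and 3 and then Th9 replicates 1 and 2, the adjusted p of Rpn1 was 0.127, 0.159, 0.146 and 0.136, that of Ostc 0.0716, 0.102, 0.0679 and 0.0795, and that of Magt1 0.0672, 0.0774, 0.0802 and 0.0636. Without Th9 replicate 3 it was 0.077 for Rpn1 and 0.0879 for Ostc. With the same total per library it was 0.222, 0.181 and 0.103 for Rpn1, Ostc and Magt1, but 0.0269, 0.0166 and 0.0116 when the 3 RNA genes were left out of those totals.

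Dad1 (chromosome 14, 54235479 to 54254104, minus strand), a small subunit named for defender against cell death, was the transfer gene called higher with Th17 cells. It was listed at 196, 179 and 190 with Th0 cells and at 304, 279 and 315 with Th17 cells, with no overlap. The mean rose from 188.3 ± 8.6 to 299.3 ± 18.4 (SD, n = 3), 1.59-fold, with a log2 fold change of 0.66 ± 0.10 (SE) and an adjusted p of 0.00891. The adjusted p was 0.0857 without Th17 replicate 1 and 0.096 without Th17 replicate 3. With Th9 cells Dad1 was listed at 248, 263 and 170 against 191, 175 and 185. Th9 replicate 3 lies below every Th0 library, and the log2 fold change of 0.28 ± 0.15 (SE) had an adjusted p of 0.212, or of 0.0263 without Th9 replicate 3.

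Stt3a and Stt3b are the alternative catalytic subunits, Stt3a acting while a protein is being made and Stt3b also afterwards. Stt3a was listed at 3573, 4829 and 4868 against 4106, 4024 and 3823 with Th9 cells, and Stt3b at 3100, 4166 and 4085 against 3297, 3256 and 3547. In both, Th0 replicate 1 lies below all Th9 libraries and the other Th0 libraries lie above them. The log2 fold changes were -0.14 and -0.16 with all libraries, and -0.28 (adjusted p = 0.000975) and -0.29 (adjusted p = 0.000941) without Th0 replicate 1.

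With Th17 cells Stt3a was listed at 4582, 4650 and 4875 against 3675, 4934 and 4996, and Stt3b at 3644, 3569 and 3713 against 3189, 4256 and 4192. The log2 fold changes were 0.07 and -0.08, and without Th0 replicate 1 they were -0.08 (adjusted p = 0.311) and -0.21 (adjusted p = 0.00827). Rpn2 and Ddost, which belong to the shared core, ran from -0.13 to 0.22 and were not called with all libraries. Ddost was called lower with Th9 cells without Th0 replicate 1 (log2 fold change -0.26, adjusted p = 0.00794).

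**Figure D4:**
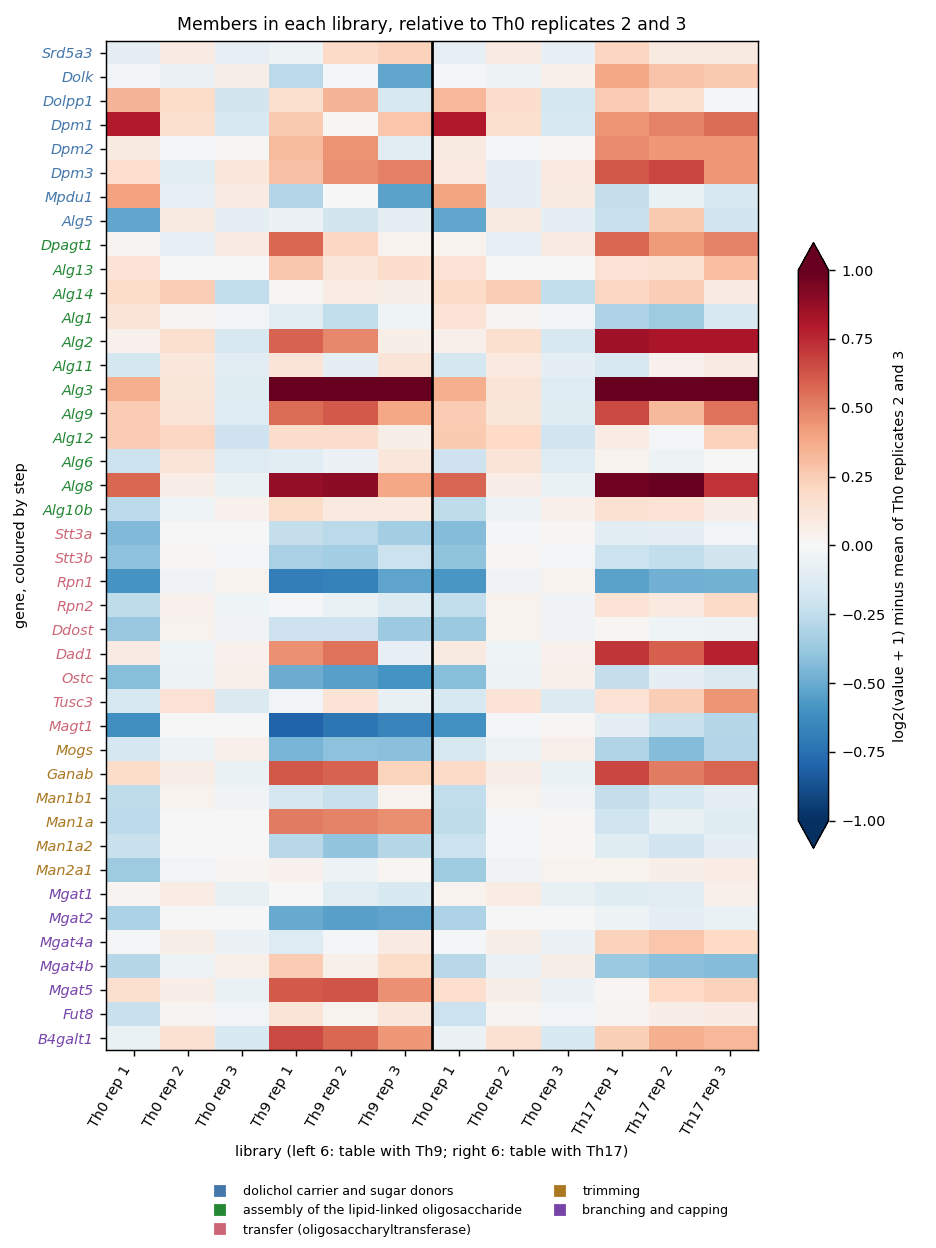
Log2(value + 1) of each of the 42 genes in each library, minus the mean of Th0 replicates 2 and 3 of the same table, on a colour scale from -1 to 1. In the transfer block the Th0 replicate 1 column is low for 8 of 9 genes.

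Among the trimming genes, 2 of 6 were called higher and 1 lower with Th9 cells, and 1 higher and 0 lower with Th17 cells (1 lower at an unadjusted p under 0.05). Without Th0 replicate 1, 2 were called higher and 2 lower with Th9 cells, and 1 higher and 1 lower with Th17 cells. Ganab and Mogs are the glucosidases that act right after transfer, Mogs (glucosidase I) removing the outermost glucose and Ganab, the catalytic subunit of glucosidase II, the inner ones. With Th9 cells Ganab was called higher and Mogs lower. Ganab (chromosome 19, 8898090 to 8916663, plus strand) was listed at 2311, 2125 and 1938 with Th0 cells and at 3127, 3051 and 2374 with Th9 cells. The groups do not overlap, and the log2 fold change was 0.42 ± 0.11 (SE), with an adjusted p of 0.0179. Ganab's values with Th17 cells were 3299, 2979 and 3114 against 2376, 2171 and 1989, again with no overlap. The log2 fold change was 0.53 ± 0.09 (SE), with an adjusted p of 0.0142.

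Ganab's adjusted p with Th9 cells was 0.0778 without Th0 replicate 3, 0.108 without Th9 replicate 1 and 0.0966 without Th9 replicate 2. With Th17 cells it was 0.0777 without Th0 replicate 3, and 0.122, 0.0708 and 0.113 without Th17 replicates 1, 2 and 3. Its direction did not change in any alternative. Prkcsh, the regulatory subunit of the same glucosidase and not among the 42 genes, was called lower with Th9 cells at a log2 fold change of -0.38 (adjusted p = 0.0366). It had -0.41 (adjusted p = 0.101) with Th17 cells, and -0.55 (adjusted p = 4.58e-05) without Th0 replicate 1.

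Mogs (chromosome 6, 83115496 to 83118898, plus strand) was listed at 1729, 1883 and 2010 with Th0 cells and at 1412, 1465 and 1457 with Th9 cells, with no overlap. Mogs had a log2 fold change of -0.37 ± 0.08 (SE), with an adjusted p of 0.00623 that held in 13 of 14 alternatives. It was 0.158 with the same total per library. With Th17 cells the values were 1619, 1476 and 1623 against 1778, 1923 and 2062, and the log2 fold change was -0.29 ± 0.08 (SE), with an adjusted p of 0.107, or of 0.00167 without Th0 replicate 1.

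Man1a and Man1a2 are Golgi alpha-mannosidases that cut the same kind of bond. Man1a (chromosome 10, 53904788 to 54075796, minus strand) was listed at 666, 794 and 802 with Th0 cells and at 1145, 1125 and 1099 with Th9 cells, well apart. The mean rose from 754.0 ± 76.3 to 1123.0 ± 23.1 (SD, n = 3), 1.49-fold, with a log2 fold change of 0.58 ± 0.09 (SE), an adjusted p of 0.000651 and a call in all 14 alternatives. Man1a stood at 713, 777 and 752 with Th17 cells, against 685, 811 and 823, which overlap, with a log2 fold change of -0.04 ± 0.09 (SE) and an adjusted p of 0.842. Whether the Th9 and Th17 changes differ was not tested.

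Man1a2 was listed at 1448, 1683 and 1699 against 1394, 1287 and 1384 with Th9 cells. The groups do not overlap, and the log2 fold change was -0.25 ± 0.09 (SE), with an adjusted p of 0.0586, or of 0.000897 without Th0 replicate 1. Its values with Th17 cells were 1591, 1513 and 1616 against 1490, 1720 and 1743, with a log2 fold change of -0.07 ± 0.08 (SE). Per kilobase of exon, Man1a2 stood at 202.0 and Man1a at 78.2 with Th0 cells, and at 170.0 and 116.4 with Th9 cells. Man1b1, the ER mannosidase, and Man2a1, which trims further in the Golgi, had log2 fold changes of -0.04 and 0.12 with Th9 cells and of -0.08 and 0.17 with Th17 cells, and were not called with or without Th0 replicate 1.

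In branching and capping, 2 of 7 genes were called higher and 1 lower with Th9 cells (median log2 fold change 0.17), and 0 were called with Th17 cells (median 0.09), where 2 were higher and 1 lower at an unadjusted p under 0.05. Without Th0 replicate 1, 2 were called higher and 1 lower in each comparison. Mgat5 adds the β1,6 branch and B4galt1 adds galactose to the branches. Mgat5 (chromosome 1, 127205015 to 127488336, plus strand) was listed at 293, 274 and 250 with Th0 cells and at 401, 405 and 359 with Th9 cells, with no overlap. Mgat5 had a log2 fold change of 0.51 ± 0.10 (SE), 1.43-fold, with an adjusted p of 0.00362. Mgat5 stood at 272, 308 and 314 with Th17 cells, against 301, 279 and 257, which overlap, with a log2 fold change of 0.09 ± 0.10 (SE).

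B4galt1 (chromosome 4, 40804602 to 40854005, minus strand) was listed at 548, 639 and 515 with Th0 cells and at 909, 855 and 776 with Th9 cells, with no overlap. The mean rose from 567.3 ± 64.2 to 846.7 ± 66.9 (SD, n = 3), with a log2 fold change of 0.58 ± 0.10 (SE) and an adjusted p of 0.00138. B4galt1 stood at 692, 754 and 740 with Th17 cells, against 564, 653 and 529, also with no overlap. That log2 fold change of 0.33 ± 0.09 (SE) had an adjusted p of 0.107, of 0.024 without Th0 replicate 1 and of 0.0438 without Th0 replicate 2. The Th9 calls of Mgat5 and B4galt1 held in all 14 alternatives.

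Mgat2 (chromosome 12, 69184157 to 69186770, plus strand), which starts the second antenna, went the other way. It was listed at 2351, 2936 and 2910 with Th0 cells and at 2058, 2002 and 2030 with Th9 cells, with no overlap. The log2 fold change was -0.42 ± 0.10 (SE), with an adjusted p of 0.00734, or of 0.131 with the same total per library, the only 1 of 14 alternatives that ended the call. With Th17 cells the values were 2891, 2794 and 2859 against 2418, 2999 and 2986, with a log2 fold change of 0.03 ± 0.09 (SE).

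Mgat4a and Mgat4b add the same further branch. Mgat4b was listed at 682, 800 and 861 against 992, 860 and 944 with Th9 cells, overlapping by 1 unit, with a log2 fold change of 0.26 ± 0.10 (SE) and an adjusted p of 0.0797. With Th17 cells it was listed at 657, 636 and 627 against 701, 817 and 883, below every Th0 library, with a log2 fold change of -0.32 ± 0.09 (SE). That change had an adjusted p of 0.115, and of 0.00088 without Th0 replicate 1.

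Mgat4a was listed at 454, 479 and 441 against 420, 456 and 486 with Th9 cells, a log2 fold change of -0.01 ± 0.09 (SE). With Th17 cells it was listed at 551, 572 and 539 against 467, 490 and 452, above every Th0 library, with a log2 fold change of 0.24 ± 0.08 (SE) and an adjusted p of 0.15, or of 0.0408 without Th0 replicate 1. The estimates of the pair thus had opposite signs in each comparison, and whether they differ was not tested. Mgat1, which starts the first antenna, and Fut8, which adds the core fucose, had log2 fold changes of -0.10 and 0.17 with Th9 cells and of -0.07 and 0.13 with Th17 cells, and were not called with or without Th0 replicate 1.

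Other genes of the pathway, in 6 lists outside the 42, gave 6 higher and 7 lower calls among 50 tested with Th9 cells. These are 12% and 14% of them, near the 13.4% and 11.9% of all genes. There were 8 higher and 14 lower calls among 51 without Th0 replicate 1, or 15.7% and 27.5%, beside 18.1% and 19.1% of all genes. Of 17 genes for nucleotide sugar supply, 3 were called higher and 2 lower. Gnpnat1, an enzyme on the route to UDP-N-acetylglucosamine, rose from 106, 121 and 113 to 173, 181 and 193 (log2 fold change 0.68, adjusted p = 0.00188). Gmppb, which makes GDP-mannose, fell from 125, 115 and 118 to 75, 86 and 66 (log2 fold change -0.66, adjusted p = 0.00832). Gne, which starts sialic acid synthesis, had 0.41 (adjusted p = 0.00521) and Gmds, which starts GDP-fucose synthesis, -0.49 (adjusted p = 0.00823). The remaining call, Gfpt2, had the largest change of the list at low values. It rose from 7, 4 and 6 to 19, 16 and 26 (log2 fold change 1.68, adjusted p = 0.00722). The list had 3 higher and 3 lower without Th0 replicate 1.

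Of 15 genes for the glycoprotein folding cycle and turnover, 0 were called higher (1 at an unadjusted p under 0.05) and 4 lower with Th9 cells, beside 13.4% and 11.9% of all genes. Calr, the chaperone calreticulin that binds monoglucosylated glycoproteins, was listed at 10823, 16903 and 16178 against 8475, 8943 and 8964 (log2 fold change -0.71, adjusted p = 0.00527). Lman2, Prkcsh and Os9 had -0.34, -0.38 and -0.29. This list had 1 higher and 6 lower without Th0 replicate 1, beside 18.1% and 19.1% of all genes. With the same total per library it had 1 higher and 1 lower (Calr, adjusted p = 0.0453). Of the 3 other oligosaccharyltransferase subunits, Krtcap2 was called higher (log2 fold change 0.57, adjusted p = 0.00256) and Ost4 lower (-0.47, adjusted p = 0.0339). Nus1, a subunit of the enzyme that makes the isoprenoid carrier, had 0.33 (adjusted p = 0.0301) and the GDP-fucose transporter Slc35c1 0.55 (adjusted p = 0.0244). In the list of further Golgi branching and capping enzymes 0 of 8 tested genes were called, with 0 higher and 2 lower at an unadjusted p under 0.05, and 1 higher and 3 lower were called without Th0 replicate 1. With Th17 cells 0 genes of these 6 lists were called, and at an unadjusted p under 0.05 there were 1 higher for the carrier, 1 and 1 (higher and lower) for nucleotide sugars, 2 and 0 for the subunits, 1 and 1 for the folding cycle, 0 and 0 for Golgi enzymes and 1 and 0 for the transporters. Of all genes, 1.19% and 0.39% were called higher and lower. The absence of calls did not hold without Th0 replicate 1. Without it, 3 of 48 genes were called higher and 7 lower (6.25% and 14.6%), beside 6.85% and 9.7% of all genes. Of these calls, 1 higher and 5 lower (Prkcsh, Canx, Calr, Os9 and Lman2, named after their values were seen) belong to the folding cycle.

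A list of ER and amino acid stress genes (the unfolded protein response and the integrated stress response) moved in both directions with Th9 cells, with 5 of 20 called higher and 8 lower. Of all genes, 13.4% and 11.9% were called higher and lower. Trib3, a kinase-like gene induced by ATF4, rose from 179, 199 and 203 to 777, 768 and 801, and Herpud1, a gene of ER-associated degradation, from 171, 180 and 170 to 423, 470 and 405. Asns and Atf4 rose by 1.04 and 0.74 on the log2 scale. These 4 had the smallest adjusted p of the list. Among the genes that fell, named after their values were seen, the ER proteins Creld2, Manf and Dnajc3 had log2 fold changes of -0.64, -0.58 and -0.57, and they were the 3 still called lower with the same total per library. The whole list had 5 higher and 11 lower without Th0 replicate 1, beside 18.1% and 19.1% of all genes. With Th17 cells 1 of 20 was called, Herpud1, which went from 176, 184 and 175 to 238, 252 and 268 (log2 fold change 0.50, adjusted p = 0.0356). Its adjusted p was 0.0745 with the same total per library. Without Th0 replicate 1 the list had 3 higher and 4 lower, beside 6.85% and 9.7% of all genes.

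T cell transcripts differed between the comparisons. The summed value of 24 listed T cell markers was 216, 126 and 94 in the Th0 libraries and 2383, 2000 and 1650 in the Th9 libraries, and 17 of 19 tested markers were called higher. Without Th0 replicate 1, 21 markers were called higher. Cd3g, part of the T cell receptor, had 8, 5 and 2 with Th0 cells and 352, 346 and 254 with Th9 cells. In the table with Th17 the 13 listed markers summed to 198, 116 and 91 with Th0 cells and to 78, 61 and 89 with Th17 cells, with 0 of 4 tested called and 1 lower at an unadjusted p under 0.05. Th9 replicate 3, which had the lowest T cell sum of its group, was the lowest of its group for 21 of the 42 genes and the highest for 10. The share over all genes was not computed. The part of T cell RNA in the Th9 changes of the N-glycan genes was not tested.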

How the data were processed

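The authors deposited 2 tables of scores per gene, normalized counts rounded to whole numbers, each normalized on its own and both holding the Th0 libraries. This was checked on the values, since those libraries differed between the tables by 1 factor each (1.0285, 1.0216 and 1.0262 over 18022 shared genes). A stranded total RNA kit was used on 1 µg of RNA per the labels' protocols. The tools that appear, without roles, per the submitters' processing notes are DESeq2 1.62, featureCounts 1.4.5-p1 (Subread) and STAR 2.4.0a, with GRCm38 and mm10 as builds. Whether the counting used strand is not given in the sources used here, so overlapping genes, and likewise paralogs, can share reads. The number of value columns left unused was 0.

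Each T cell group was compared with Th0 within its own table by limma-trend (limma 3.58.1, R 4.3.3) on log2(value + 1), which understates changes of low genes. Genes under a mean of 10 across a comparison's 6 libraries were left out, group was the only term, and p-values were adjusted by Benjamini-Hochberg over all genes tested. The script was tested on simulated data, where small changes were missed more often than large ones. The simulated libraries were drawn with the same setting of spread for every gene, and none stood apart as Th0 replicate 1 does. The simulation therefore does not show how often changes are missed in these data. Its pass criterion was set anew after the missed small changes had been seen. A gene that was not called may still have changed by an amount of the size of many called here. Approximate reads came from the regular steps of the values. Exon lengths and overlaps were taken from GENCODE M21 (GRCm38), in which all 42 genes were found (35 with the tables' coordinates, 15 sharing exon bases with another gene), and levels between genes are compared per kilobase of merged exons.

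The genes, lists, motifs and rule for named genes were chosen with earlier results of these data known. The rule gave full values for each gene called in either comparison and for the paralog pairs Stt3a and Stt3b, Tusc3 and Magt1, Man1a and Man1a2, and Mgat4a and Mgat4b, other members by range, and at most 4 genes per further list and comparison. More than 4 were named in the nucleotide sugar, folding cycle and stress lists. B cell and myeloid marker lists gave 0 of 2 tested and 1 higher and 1 lower of 4 tested with Th9 cells, and 0 of 2 and 0 of 4 with Th17 cells, where each had 1 lower at an unadjusted p under 0.05. With Th9 cells 0 B cell markers passed that unadjusted p. Without Th0 replicate 1 the myeloid list gave 1 higher and 0 lower with Th9 cells. LLC1 markers are given with the results.
Alternatives were other pseudocounts, filters and scalings, array weights, a replicate block and leaving out each library.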

Additional observations from a re-analysis of the deposited data

How the results depend on the processing

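Over 14 alternatives in each comparison, 37 of 224 values of called genes lost the call and 0 changed sign, and 8 of 140 step medians moved by more than the spread between replicates. The transfer medians without Th0 replicate 1 (-0.284 with Th9 cells, -0.079 with Th17 cells) count as not moved. Their spreads, 0.173 and 0.167, include that library. With Th9 cells the genes called higher over the whole table numbered 3302 with array weights and 1015 to 2594 with 1 library left out, and those called lower 794 with the same total per library, 3326 with array weights and 838 to 2742 with 1 library left out. Of the 42 genes, 4 to 9 were then higher with 1 library left out, and the lower ones numbered 0 with the same total, 6 with the same total without mt-Rnr1, mt-Rnr2 and Gm26917 (all 5 lower calls kept), 9 with array weights and 2 to 9 with 1 library left out. With Th17 cells the genes called higher over the whole table numbered 345 with the same total without those 3 RNA genes, 1572 with array weights and 14 to 974 with 1 library left out. Those called lower numbered 20 with the same total, 102 with the same total without those 3 RNA genes, 1789 with array weights and 2 to 1378 with 1 library left out. Of the 42 genes, 13 were higher and 4 lower with array weights, and 2 to 11 higher and 0 to 5 lower with 1 library left out. The highest leave-one-out counts came without Th0 replicate 1, apart from the 9 genes called higher without Th9 replicate 3. The cause of these moves was not tested, although leaving out a library also leaves fewer samples.

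A replicate block by number called 8 of the 42 genes higher and 5 lower with Th9 cells, and 5 higher and 0 lower with Th17 cells, adding Alg2 with Th9 cells (adjusted p = 0.00715) and Alg8 with Th17 cells (adjusted p = 0.0149). Over the whole table it called 2114 higher and 1962 lower with Th9 cells and 186 and 76 with Th17 cells. Whether the numbers pair the samples is not stated in the labels, and correlations among 3 libraries per group cannot decide it. Those of same-numbered libraries were 0.1114, -0.011 and 0.1453 in the Th9 comparison, with -0.0547, -0.0795 and 0.039 in the other. Those of libraries with different numbers ran from -0.1346 to 0.0399 and from -0.0466 to 0.0942. The number of libraries, 3 per group, limits the precision of each value.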
